A study of Homo sapiens with 6 samples.

Results

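The enzymes described here are 10 genes of glycolysis: HK1, HK2, PFKP, ALDOA, GAPDH, PGK1, ENO1, ENO2, PKM and LDHA. They were taken by gene name from the deposited table, and all 10 were found among its 32862 genes, each in 1 row. Poly(A)-selected RNA was sequenced from SH-SY5Y, a human neuroblastoma cell line, in 3 libraries labelled OTULIN KO, in which the gene of this deubiquitinase of linear ubiquitin chains was disrupted with CRISPR-Cas9, and in 3 libraries labelled WT. All 6 cultures were untreated, and all 6 libraries carry the same batch label. Neither the number of KO clones nor separate culture of the replicates is given in the labels. A p-value here therefore reflects how far these 6 libraries scatter within their groups, and that scatter may be technical.

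Glycolysis splits glucose into pyruvate and yields ATP and NADH in the cytosol. Several of its steps can be run by more than one isoenzyme, each encoded by its own gene, and tissues differ in which they use. Nervous tissue is known for HK1, for ALDOC and for ENO2, the neuron-specific enolase that is measured in serum as a marker of neuroblastoma. HK2, PFKP and LDHA are known for high levels in many tumours, and hypoxia-inducible factor (HIF), which binds sites with the core ACGTG, is a textbook activator of several genes of the pathway.

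The isoenzyme pairs HK2 with HK1 and LDHA with LDHB differ in how often this core stands in 1 upstream window per gene. Their windows were chosen for that difference. Each window holds the 250 bases before the RefSeq start site (GRCh38.p14) that lies nearest to the 5′ end of the gene in the deposited table, written 5′ to 3′ on the strand of the gene, with ACGTG on either strand in capitals. Where matches on the 2 strands overlap, as CACGTG, they count once. The windows are chr2:74833877-74834126 (plus strand) for HK2, chr10:69269750-69269999 (plus) for HK1, chr11:18394313-18394562 (plus) for LDHA and chr12:21657843-21658092 (minus) for LDHB.
HK2: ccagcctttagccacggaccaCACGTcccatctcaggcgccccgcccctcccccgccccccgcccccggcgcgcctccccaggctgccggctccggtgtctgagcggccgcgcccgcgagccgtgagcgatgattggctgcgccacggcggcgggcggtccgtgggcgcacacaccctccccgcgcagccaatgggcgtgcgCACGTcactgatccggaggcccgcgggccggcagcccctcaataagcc
HK1: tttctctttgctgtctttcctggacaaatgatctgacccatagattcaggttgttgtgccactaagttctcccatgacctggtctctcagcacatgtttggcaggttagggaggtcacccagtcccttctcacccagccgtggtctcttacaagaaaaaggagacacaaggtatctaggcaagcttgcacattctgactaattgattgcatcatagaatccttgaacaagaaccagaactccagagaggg
LDHA: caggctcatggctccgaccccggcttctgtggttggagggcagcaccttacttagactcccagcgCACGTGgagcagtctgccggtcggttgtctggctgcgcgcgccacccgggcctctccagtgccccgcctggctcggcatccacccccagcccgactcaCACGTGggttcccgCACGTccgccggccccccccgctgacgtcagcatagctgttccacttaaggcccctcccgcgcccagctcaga
LDHB: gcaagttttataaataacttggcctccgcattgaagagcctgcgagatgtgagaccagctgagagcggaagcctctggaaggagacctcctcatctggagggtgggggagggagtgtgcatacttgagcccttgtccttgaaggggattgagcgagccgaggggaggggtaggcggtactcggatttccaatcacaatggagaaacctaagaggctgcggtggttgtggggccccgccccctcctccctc
The core was found at 2 places in the HK2 window and at 3 in the LDHA window, and at 0 in those of HK1 and LDHB. RefSeq windows were found for all 10 enzymes, and 6 of them held at least 1 match, namely HK2, ALDOA, GAPDH, PGK1, ENO2 and LDHA. The core stood in 18.5% of all 35116 windows of this length. The other isoenzymes did not follow 1 pattern: ALDOC held 2 matches and ALDOA 1, while PFKL, PFKM and PFKP held 0. The PGK1 window lies 193509 bases from the 5′ end of the gene in the deposited table, and those of the other 9 enzymes at most 1637 bases from it. Only 1 start site per gene was used. The HK1 row spans 69269984 to 69401884 and lists 10 transcripts, and any other start of HK1 was not looked at. The contrast of HK2 with HK1 therefore holds for these 2 windows and may not hold for the starts in use in these cells. A match in these letters is a description and shows no binding.

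The libraries differed in depth along with their label, and every comparison below rests on that. The KO libraries held 725827 to 862932 counts, and the WT libraries 61772795 to 64352333. OTULIN itself had 0 counts in each KO library, against 1682, 2101 and 2155 counts in the WT libraries. This does not check the labels, because 7716 of the 10820 genes tested (71.3%) were also at 0 in all KO libraries. Of 14 markers of sympathoadrenal neuroblastoma, 4, HAND2, GATA2 and ISL1 among them, had counts in every KO library and 9 were at 0 in all of them, while 13 reached the level for testing through the libraries together. TH, the defining enzyme of catecholamine synthesis, averaged only 0.503 FPKM in WT. The summed level of 5 epithelial markers was 4.94 to 29.0 CPM (counts relative to the library total) in KO and 7.43 to 23.2 CPM in WT, that of 5 blood markers 4.64 to 26.2 CPM in KO and 0.466 to 3.51 CPM in WT, and that of 6 fibroblast and endothelial markers 46.4 to 138 CPM in KO and 71.3 to 82.9 CPM in WT. Of these lists, COL1A1, a fibroblast collagen, was called higher in KO (30, 24 and 57 counts, log2 change 1.92, SE 0.37, edgeR adjusted p = 0.0019), and COL3A1 was called lower (log2 change -1.45, SE 0.30, edgeR adjusted p = 0.0029). Untested or not called, but with a higher mean CPM in KO, were COL1A2 (30, 5 and 9 KO counts), CDH1 (0, 0 and 12), KRT19 (0, 21 and 4), EPCAM (4, 0 and 0), HBA1 (4, 0 and 14), HBB (0, 0 and 5), PTPRC (0, 4 and 0) and PECAM1 (0, 0 and 3). For COL1A2 (18.4 CPM in KO, 15.0 in WT) and EPCAM (1.65 and 1.49) the difference was small. The epithelial marker KRT8, the blood markers CD74 and LYZ, the endothelial marker VWF and the fibroblast marker LUM were at 0 in KO. With WT counts thinned at random to KO depth, all 10 enzymes were still called lower. Lower calls over all genes were then 9165, against 9519 without thinning. What lay behind the low KO depth, and the part of these markers in the results, was not tested.

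The 10 enzymes were nearly absent from the KO libraries. Together they had 26, 48 and 34 counts in the KO libraries, against 487270, 474403 and 447938 in the WT libraries. That is 0.00449% ± 0.0012 of all counts in KO libraries, and 0.749% ± 0.031 in WT libraries (SD, 3 libraries a group), and the groups did not overlap. At the WT share of counts, the KO libraries would have held 17951 counts of these genes, where 108 were seen. Since their levels are relative to the RNA in each library, fewer cells of a type and less RNA per cell cannot be told apart.

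All 10 enzymes were called lower in KO (edgeR adjusted p of 5.7e-06 to 2.9e-05 by the quasi-likelihood test, taken over all genes tested). The same call was made for 88.0% of all 10820 genes tested, so the count alone does not set the enzymes apart. The 3 KO libraries were below the 3 WT libraries for all 10 enzymes, as for 88.0% of the genes tested, and above them for 0 enzymes, against 8.15% of the genes tested. With the replicate number as a block, 4 of the 10 enzymes were called lower, where 2.67% of all genes tested were called lower and 4.18% higher. Each enzyme passed the minimum of 1 FPKM on average through its WT libraries, apart from GAPDH, whose KO mean was also above 1 FPKM. The median log2 ratio of KO to WT mean CPM, with genes at 0 in KO set to a bound, was -6.96 for the 10 enzymes and -4.54 for all genes tested. That bound is fixed at 3 counts over the KO group, 1.25 CPM, so for a gene at 0 in KO the ratio is set by its WT level. The median fitted log2 change was -9.22 for the 10 enzymes and -12.4 for all genes tested. For a gene at 0 in KO, however, the fitted value depends on method and depth. That of HK1 was -14.99 here, -10.06 with DESeq2 and -9.46 with WT counts thinned to KO depth. That of GAPDH, which had KO counts, was -7.19, -7.76 and -6.68. These medians therefore do not rank the enzymes against other genes. Of the 10 enzymes, 4 were at 0 in all KO libraries, against 71.3% of all genes tested.

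**Figure D1:**
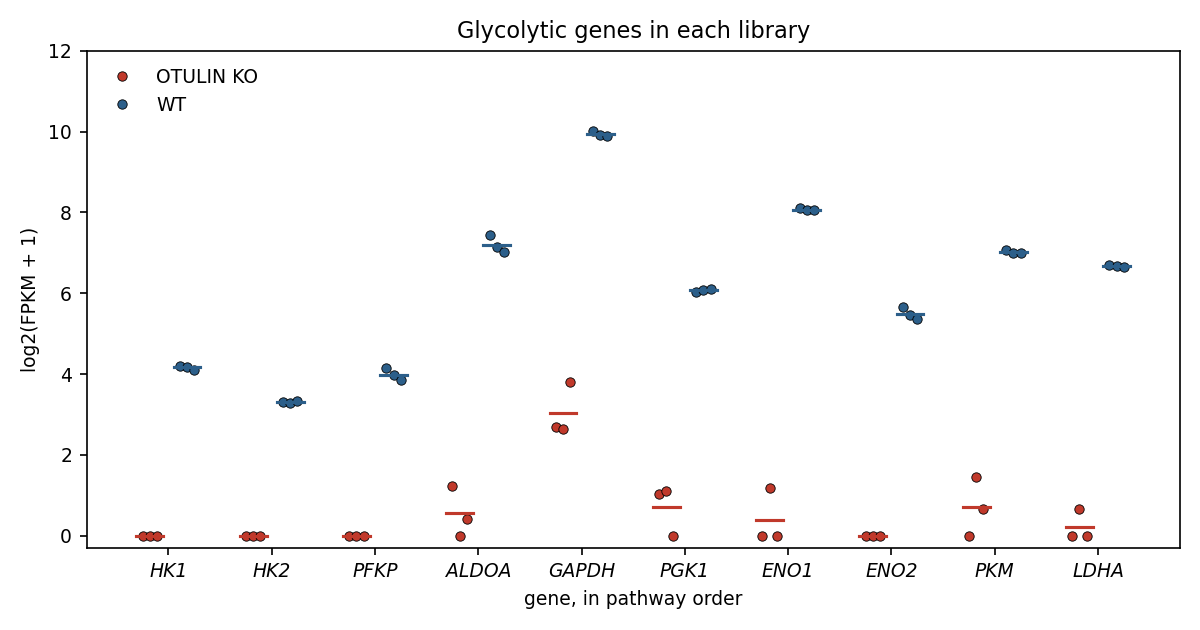
Level of each enzyme gene in each library as log2(FPKM + 1), with the 3 OTULIN KO libraries (red, left) and the 3 WT libraries (blue, right) as points and group means as lines. The WT points lie far above the KO points for all 10 genes, and GAPDH is the only gene with a value above 0 in every KO library.

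Glucose is first trapped in the cell as its phosphate by the hexokinases, and none of their reads was seen in KO. HK1 (ENSG00000156515, chromosome 10, 69269984 to 69401884, plus strand, hg38), the isoenzyme of most tissues and of brain, had 0 counts in each KO library, against 8156, 8252 and 7534 counts in the WT libraries. HK1 was at least 102-fold lower in KO. HK2 (ENSG00000159399, chromosome 2, 74834127 to 74893359, plus strand), the inducible isoenzyme, had 0 counts in each KO library, against 3595, 3609 and 3620 counts in the WT libraries. HK2 was at least 46.0-fold lower. At the WT share of counts, 305 counts of HK1 and 138 of HK2 would have been seen in the KO libraries together.

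PFKP (ENSG00000067057, chromosome 10, 3066333 to 3137718, plus strand), the platelet-type isoenzyme of phosphofructokinase, which commits sugar to glycolysis, was likewise absent. It had 0 counts in each KO library, against 8769, 7984 and 7081 counts in the WT libraries, and was at least 101-fold lower. PFKL, the liver type, was also at 0 in all KO libraries and at least 87.2-fold lower. PFKM, the muscle type, had 0, 0 and 3 counts in the KO libraries, against 7860, 8048 and 8000 counts in the WT libraries. Its ratio on the pooled counts was 102-fold lower in KO (95% counting interval from 34.7 to 492), and without KO replicate 3 it was at 0 there.

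ALDOA, GAPDH and PGK1 left a few reads in KO. ALDOA (ENSG00000149925, chromosome 16, 30064164 to 30070414, plus strand), the aldolase of muscle and most other tissues, which cleaves the sugar phosphate, had 6, 0 and 2 counts in the KO libraries, against 44857, 37858 and 33071 counts in the WT libraries. Its level was 181-fold lower in KO, or 446-fold without KO replicate 1. GAPDH (ENSG00000111640, chromosome 12, 6534512 to 6538371, plus strand), which makes NADH and is a common reference gene, was the one enzyme seen in every KO library, with 14, 14 and 27 counts in KO, against 167088, 162085 and 154471 counts in WT. GAPDH was 109-fold lower (log2 change -7.19, SE 0.27, edgeR adjusted p = 5.7e-06), and leaving out any 1 library moved this fold by less than 1.5 times. PGK1 (ENSG00000102144, chromosome X, 77910739 to 78129295, plus strand), which makes the first ATP of the pathway, had 6, 7 and 0 counts in the KO libraries, against 23851, 25396 and 24679 counts in the WT libraries. With 75.9-fold, PGK1 had the smallest decrease among the 6 enzymes with any KO count when all libraries were used. Without KO replicate 1 it was 96.8-fold, above PKM (94.6) and GAPDH (96.2), and without KO replicate 2 it was 106-fold, above GAPDH (94.3). From the summed counts the decrease was 72.4-fold, with a 95% Poisson range of 42.3 to 136.

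Enolase, which makes phosphoenolpyruvate, was seen in 1 KO library only. ENO1 (ENSG00000074800, chromosome 1, 8861000 to 8878690, minus strand), the form found in most tissues, had 0, 7 and 0 counts in the KO libraries, against 96753, 97294 and 92888 counts in the WT libraries. It was 563-fold lower, and at 0 in KO without KO replicate 2. ENO2 (ENSG00000111674, chromosome 12, 6913745 to 6923696, plus strand), the neuronal form, had 0 counts in each KO library, against 14307, 12867 and 11493 counts in WT, and was at least 164-fold lower.

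The last steps behaved in the same way. PKM (ENSG00000067225, chromosome 15, 72199029 to 72231680, minus strand), which encodes pyruvate kinase, had 0, 16 and 5 counts in the KO libraries, against 77715, 76128 and 72571 counts in the WT libraries. It was 142-fold lower, or 94.6-fold without KO replicate 1 and 349-fold without KO replicate 2. LDHA (ENSG00000134333, chromosome 11, 18394560 to 18408218, plus strand), whose subunit favours the making of lactate, had 0, 4 and 0 counts in the KO libraries, against 42179, 42930 and 40530 counts in the WT libraries. It was 432-fold lower, and at 0 in KO without KO replicate 2. LDHB, which encodes the other main subunit, was at 0 in all KO libraries and at least 555-fold lower, against 42567, 45480 and 42643 counts in WT.

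**Figure D2:**
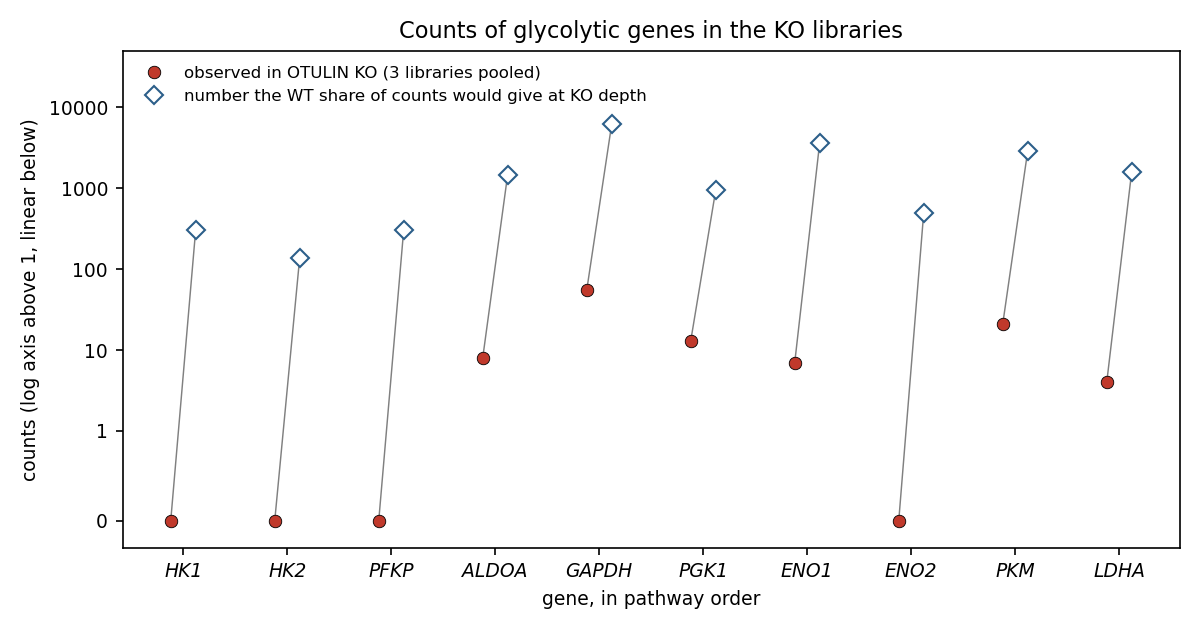
Counts of each enzyme gene over the 3 OTULIN KO libraries (red circles) and the number that its WT share of counts would give at the KO depth (blue diamonds), on an axis that is logarithmic above 1 and linear below. GAPDH had 55 counts where 6160 would have been seen at the WT share, and HK1, HK2, PFKP and ENO2 had 0.

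Within WT the enzymes spanned a wide range of levels per length (FPKM, fragments relative to transcript length and library size). GAPDH stood first at 1029, 964 and 956 FPKM and ENO1 second at 274, 266 and 264 FPKM. ALDOA (173, 141 and 128 FPKM) and PKM (134, 127 and 126 FPKM) followed, and their ranges overlapped, although ALDOA was above PKM in 3 of 3 libraries. LDHA averaged 102 ± 1.8 FPKM, PGK1 66.2 ± 1.3 and ENO2 44.0 ± 4.9 (SD, n = 3), each apart from its neighbours in every library. HK1 (16.9 ± 0.64 FPKM) and PFKP (14.9 ± 1.6 FPKM) overlapped in range, and HK2 was lowest at 8.90 ± 0.19 FPKM. GAPDH ranked 24 among all genes by mean WT level, ENO1 86 and HK2 4596.

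By FPKM, the entry steps were thus the low ones in WT. Summed over their isoenzymes, hexokinases reached 26.2 ± 0.67 FPKM, glucose-6-phosphate isomerase (GPI) 25.4 ± 3.3 and phosphofructokinases 42.2 ± 2.2 (SD, n = 3). From aldolase on, step totals ranged from 66.2 FPKM for phosphoglycerate kinase to 983 FPKM for GAPDH, with enolase at 315 ± 9.8 and lactate dehydrogenase at 315 ± 3.7. Every later step was above each of the 3 entry steps in FPKM in all 3 WT libraries. This order depends in part on the lengths used by the authors. In counts, which are not divided by length, the WT share would give 870 of phosphofructokinase and 710 of GPI at the KO depth. It would give only 617 of phosphoglycerate mutase, a later step, while hexokinase was lowest with 448.

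Isoenzyme use could be described in WT alone. In WT, HK2 made up 34.5% ± 1.2 of the FPKM of HK1 and HK2 together, and HK1 was above HK2 in every library. ENO2 took 14.1% ± 1.1 of ENO1 and ENO2, and ALDOA 90.7% ± 0.91 of ALDOA and ALDOC, the brain form (SD, n = 3 each). ENO1 was 6.10-fold above ENO2, and ALDOA 9.86-fold above ALDOC. ENO3, the muscle enolase, averaged 3.05 ± 0.20 FPKM. HK3 and HKDC1 averaged 0.134 and 0.0104 FPKM in WT.

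Phosphofructokinase was shared among 3 genes of similar level in WT. PFKM averaged 16.1 ± 0.27 FPKM, PFKP 14.9 ± 1.6 and PFKL 11.2 ± 0.77 (SD, n = 3). PFKP was above PFKM in replicate 1 (16.6 against 16.0 FPKM) and below it in replicates 2 and 3, so the order of these genes was not the same in every library. PFKL was lowest in all 3.

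At lactate dehydrogenase the enzyme named here was the lower of the 2 main genes. LDHB was at 211, 217 and 212 FPKM in WT and LDHA at 103, 102 and 99.7 FPKM, so LDHB was 2.10-fold above LDHA and the ranges did not overlap. LDHA took 32.2% ± 0.58 of their summed FPKM but 49.0% of their summed counts, which are not divided by length. LDHB was above LDHA in counts too in all 3 WT libraries, but narrowly (42567 against 42179 in replicate 1). The size of the gap therefore depends on the lengths used by the authors, and the order was not tested with other lengths.

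**Figure D3:**
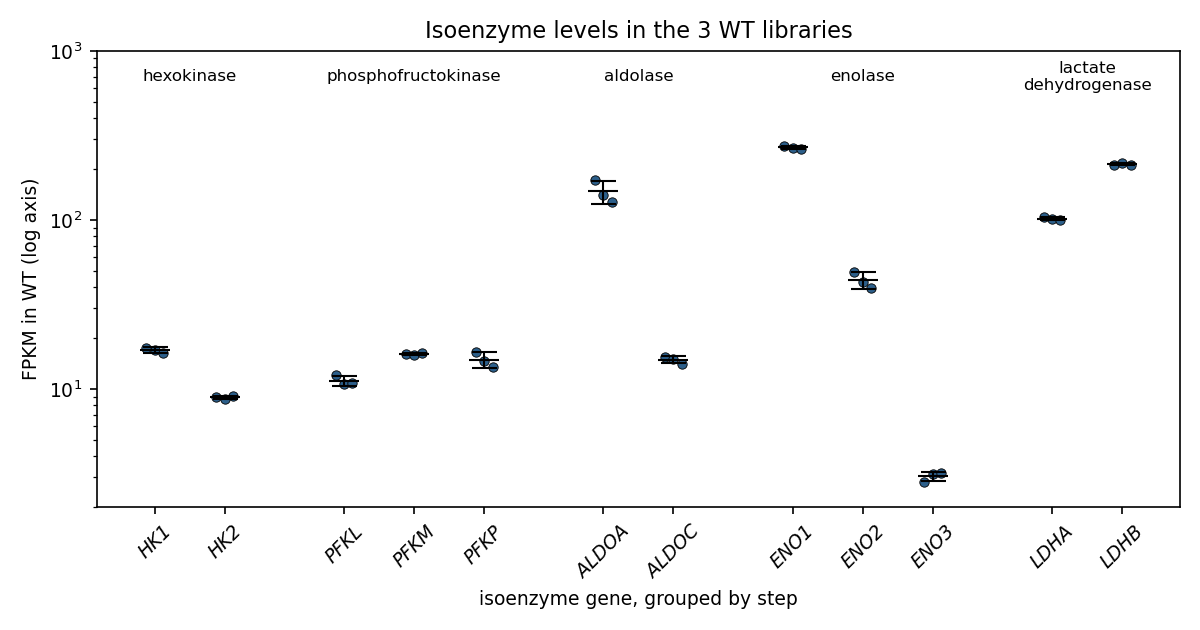
FPKM of isoenzyme genes in the 3 WT libraries (points) on a log axis, grouped by step, with the mean and SD. HK1 lies above HK2, ENO1 above ENO2 and ALDOA above ALDOC, the 3 phosphofructokinase genes lie close together, and LDHB lies above LDHA.

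No isoenzyme share could be compared between KO and WT. The hexokinase genes HK1 and HK2 had no KO count, so no share exists there. Phosphofructokinases had 3 counts in 1 KO library, all of PFKM, enolases ENO1 and ENO2 had 7 in 1 library, all of ENO1, and LDHA and LDHB had 4 in 1 library, all of LDHA. Aldolases had counts in 2 KO libraries, 8 in all and all of ALDOA. The planned exact permutation test needs a share in every library and was therefore not made. The table also gives values per gene, so the choice between the PKM1 and PKM2 splice forms was not measured, although 25 transcripts are listed in the PKM row.

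The WT libraries varied most for ALDOA, ENO2 and PFKP, with coefficients of variation of FPKM between 10.7% (PFKP) and 15.7% (ALDOA). For the other 7 enzymes this was between 1.76% and 4.08%. WT replicate 1 held the highest FPKM for 8 of the 10 enzymes and WT replicate 3 for the other 2, HK2 and PGK1. Of all genes tested, 37.9% were highest in WT replicate 1.

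Pseudogene rows named after the enzymes carried few reads. GAPDH has 16 such rows in the table, with 6 counts over the KO libraries and 579 over the WT libraries, against 55 and 483644 of GAPDH itself. Only GAPDHP1 averaged at least 1 FPKM, with 4, 0 and 0 counts in the KO libraries, against 160, 112 and 112 in the WT libraries. It was not called (log2 change -0.69, SE 0.94, edgeR adjusted p = 0.49). All 4 of its KO counts were in replicate 1, and without that library GAPDHP1 was at 0 in KO and called lower (edgeR adjusted p = 0.0091). HK2, PGK1, ENO1, PKM and LDHA also have such rows, which held 0 counts in KO, and the other 4 enzymes have none. Reads can be split between near-identical copies, which makes these small values uncertain.

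The genes nearest to GAPDH in their pattern over the 6 libraries were EEF2, a translation elongation factor, and ACTG1, a cytoskeletal actin, at Euclidean distances of 1.22 and 1.95 on log2(FPKM + 1). EEF2 had 25, 22 and 30 counts in KO, against 194947, 173335 and 161206 in WT, and ACTG1 had 14, 7 and 16 in KO, against 258975, 268182 and 251671 in WT.

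The rest of glycolysis was lower as well. Of 20 further genes of the pathway 17 were in the table, 9 of them were tested, and all 9 were called lower, 6 of them at 0 in all KO libraries. Over all genes tested these shares were 88.0% called lower and 71.3% at 0, and the lists that follow stand against the same background. TPI1, which interconverts the triose phosphates, was at least 527-fold lower, and BPGM, which makes bisphosphoglycerate, at least 21.0-fold. GPI, the second enzyme of the pathway, was the only one of these seen in every KO library, with 4, 5 and 8 counts in KO, against 21104, 18103 and 16559 in WT, 40.8-fold lower. PGAM1, a phosphoglycerate mutase, had 0, 0 and 10 counts in KO, against 17084, 15686 and 15434 in WT, and all 10 came from KO replicate 3.

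Genes of transport and control were lower to different degrees. All 5 tested genes of transport and control were called lower (88.0% of all genes tested), but SLC2A1, the glucose transporter GLUT1, kept 9, 15 and 18 counts in KO, against 9741, 8286 and 7811 counts in WT. It was 7.73-fold lower (log2 change -3.36, SE 0.24, edgeR adjusted p = 1.7e-05). SLC16A1, the lactate transporter MCT1, was at 0 in all KO libraries and at least 77.5-fold lower. BSG, its chaperone at the membrane, was 127-fold lower, or 84.6-fold leaving out KO replicate 1 and 219-fold leaving out KO replicate 3. PFKFB3, which makes an activator of phosphofructokinase, had 0, 0 and 3 counts in KO and a pooled ratio 69.5-fold lower (95% counting interval from 23.8 to 337), all 3 of them in KO replicate 3.

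Entry of pyruvate into mitochondria and the pentose phosphate branch were lower too. All 11 tested genes of pyruvate entry were called lower, against 88.0% of all genes tested, and 10 of them were at 0 in all KO libraries, against 71.3%. PDHA1 and PDHB, subunits of pyruvate dehydrogenase, were at least 53.3-fold and 55.8-fold lower, and DLAT and DLD, which carry the other catalytic steps of the complex, at least 47.9-fold and 96.7-fold. The exception was PDP1, the phosphatase that activates that complex, with 30, 16 and 13 counts in KO, against 1884, 2061 and 2016 in WT. PDP1 averaged 24.5 ± 10.9 CPM in the KO libraries, against 31.6 ± 1.2 CPM in the WT libraries (SD of 3), and these overlapped. Its call (log2 change -0.76, SE 0.22, edgeR adjusted p = 0.012) was lost with library totals alone (log2 change -0.36, edgeR adjusted p = 0.17). All 8 tested genes of the pentose phosphate pathway were called lower, where 88.0% of all genes tested were. The pentose isomerase RPIA and epimerase RPE were at least 31.2-fold and 31.8-fold lower, and PGD had 4 counts in KO, all in replicate 3. TKT, a transketolase, kept 13, 3 and 4 counts in the KO libraries, against 12610, 11581 and 10836 in the WT libraries. This was 22.3-fold lower with all libraries and 41.4-fold when KO replicate 1 was left out.

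Splicing regulators of PKM were the one neighbouring list that was not mostly lower. Of 6 tested, 2 were higher, 3 lower and 1 was not called, where 7.63% of all genes tested were called higher. HNRNPA2B1, which favours the PKM2 exon, had 12707, 11814 and 13326 counts in KO, against 103364, 111064 and 106076 in WT, and was 9.35-fold higher by CPM (log2 change 2.82, SE 0.08, edgeR adjusted p = 1.8e-06). With median-ratio factors its log2 change was 2.26. SRSF3 was 1.99-fold higher (log2 change 0.59, SE 0.08, edgeR adjusted p = 0.00038), a call that was lost with median-ratio factors (log2 change 0.03, edgeR adjusted p = 0.65). PTBP1, which also favours that exon, had 0, 3 and 0 counts in KO, against 41404, 40902 and 39091 in WT. Its pooled ratio was 515-fold lower (95% counting interval from 176 to 2499), with every KO count in replicate 2. NEK2 was at least 40.9-fold lower. HNRNPA1 was 1.52-fold lower by CPM (edgeR adjusted p = 1.5e-05), and near-identical copies in the genome can share its reads. RBM4 was not called (log2 change -0.21, SE 0.09, edgeR adjusted p = 0.053), and both its call and its direction depended on the scaling. It was called lower with median-ratio factors (log2 change -0.76, edgeR adjusted p = 0.00036) and higher with WT counts thinned to the depth of KO (log2 change 0.38, edgeR adjusted p = 0.029).

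Of 12 tested genes of the HIF pathway, 10 were called lower and 7 had no count in any KO library, where 88.0% of all genes tested were called lower and 71.3% were at 0. These counts are near that background. HIF1A, the regulated subunit, had 75, 74 and 82 counts in KO, against 14983, 17395 and 17124 in WT, and was 2.71-fold lower (log2 change -1.84, SE 0.12, edgeR adjusted p = 1.5e-05). Its partner ARNT was at least 38.9-fold lower and the target BNIP3 at least 77.6-fold. EPAS1, the sister of HIF1A, and VHL, which marks both for decay, were at least 103-fold and 76.4-fold lower. EGLN2, a HIF prolyl hydroxylase, had 62, 40 and 36 counts in KO, against 4097, 3702 and 3711 in WT. EGLN2 was called lower (log2 change -0.48, SE 0.16, edgeR adjusted p = 0.023), but not when any of 5 single libraries was left out (all but KO replicate 1) or with library totals alone (log2 change -0.09, edgeR adjusted p = 0.64). VEGFA, a target outside glycolysis, was the one gene called higher, with 228, 176 and 186 counts in KO, against 6299, 6615 and 6156 in WT. Its CPM was 2.44-fold higher (log2 change 0.89, SE 0.10, edgeR adjusted p = 0.00014). With median-ratio factors the log2 change of VEGFA fell to 0.33 (edgeR adjusted p = 0.033), and with the replicate block VEGFA was not called (edgeR adjusted p = 0.072). HIF1AN, which blocks HIF activity, was not called (log2 change 0.05, SE 0.08, edgeR adjusted p = 0.58). With median-ratio factors HIF1AN passed as lower (log2 change -0.50, edgeR adjusted p = 0.0045), and with library totals alone as higher (log2 change 0.45, edgeR adjusted p = 0.0059). Over the 1496 tested genes with at least 30 counts in KO, the median log2 change was 0.57 with the TMM factors used here, 0.01 with median-ratio factors and 0.96 with library totals alone, so changes of this size depend on the scaling, while those of the 10 enzymes were far larger.

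**Figure D4:**
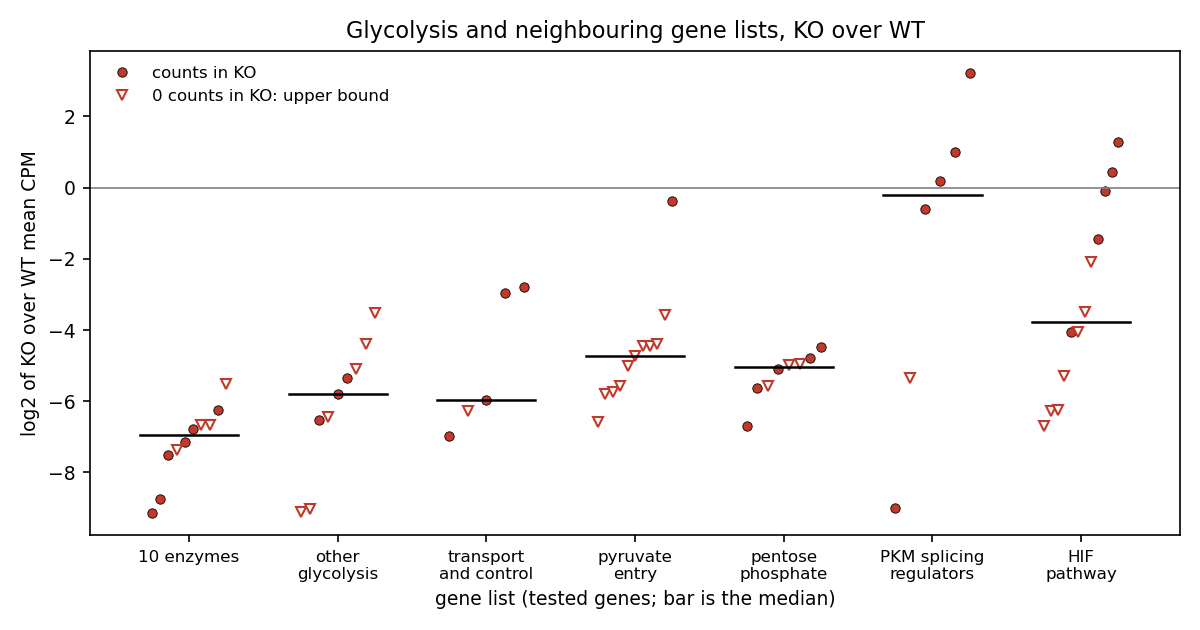
Log2 ratio of KO to WT mean CPM for the tested genes of each list, with genes seen in KO as filled circles, genes at 0 in all KO libraries as open triangles at their upper bound, and list medians as bars. The 10 enzymes lie around a median of -6.96, and values above 0 occur only among the PKM splicing regulators and the HIF genes.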

How the data were processed

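Counts and FPKM values per gene were deposited by the authors in 1 table. The counts are whole numbers, not normalized, as deposited by the authors. The FPKM values, fragments scaled to length and mapped total, are deposited values as well, per the file headers. Build hg38 and the tools StringTie 1.3.4d, HISAT2 2.0.4, cutadapt 1.9 and DESeq2 are listed, without roles, in the submitters' processing notes. Strandedness and annotation release were not given in the sources used, so antisense, overlapping and copied genes can share reads.

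Libraries were grouped by genotype in their titles. Replicate pairs differed by a chi-square of 15.5 to 41.7 per degree of freedom, so none was 1 library counted again. Genes averaging 1 FPKM or more were tested with edgeR 4.0.16 (R 4.3.3, glmQLFTest, TMM factors, total counts as library sizes), adjusted by Benjamini-Hochberg over all of them, with calls at 0.05. The fit was tested on simulated data in which most genes did not change. That setting differs from these data, where 88.0% of all genes tested were called lower. CPM are counts over the library total, and folds are ratios of mean CPM. A gene at 0 in KO has a bound from 3 counts over the KO group. Within single libraries, 3 counts correspond to between 3.48 and 4.13 CPM for KO, against 0.0466 to 0.0486 CPM for WT. Intervals are exact Poisson, and like floors cover counting error only. Standard errors are the log2 change over the square root of F.

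Enzymes and lists were chosen with earlier results of these data known. Besides the 10 enzymes, the named genes were the other isoenzymes, and per neighbouring list the 4 of largest change with all genes seen in every KO library, pseudogene rows of at least 1 FPKM, and the 2 genes nearest to any enzyme seen in all 6 libraries. Other genes shown were markers and OTULIN. A few genes covered by it are not reported here. Alternatives tried were other filters, scalings, DESeq2 1.42.0, limma 3.58.1, a replicate block, thinned WT libraries and leaving out each library. Python 3.11.15 was used for the rest.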

Additional observations from a re-analysis of the deposited data

How the results depend on the processing

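All 10 enzymes stayed lower in KO and called with no filter, median-ratio factors, library totals alone, DESeq2, limma with pseudocounts of 1 and 0.1, WT counts thinned at random to KO depth, and without each library in turn. With a mean of at least 5 FPKM, 9 were tested (not HK2) and called, and the calls of lower genes were 3851 instead of 9519, since fewer genes were tested. The replicate block gave 452 higher and 289 lower calls instead of 826 and 9519, and called 4 of the 10 enzymes (GAPDH, ALDOA, LDHA and ENO1); all 10 kept their direction. The labels give same-numbered KO and WT libraries only a number in common, so the block was not the main design. Correlations of their deviations lay between -0.0262 and 0.0234, over genes with as few as 30 counts over the KO libraries. At such low counts a pairing could be missed, so these correlations do not settle whether the libraries were paired.

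HIF1AN, which was not called, turned negative with no filter (-0.08), at 5 FPKM (-0.27), with median-ratio factors (-0.50), with DESeq2 (-0.50) and without KO replicate 1 (-0.03, up to 0.13 without WT replicate 2). RBM4 turned positive with library totals alone (0.19), limma at both pseudocounts (0.14 each) and thinned WT libraries (0.38), where GAPDHP1 also turned (0.98). RBM4 was called lower with no filter (-0.34), at 5 FPKM (-0.53), with median-ratio factors (-0.76), with DESeq2 (-0.77) and without KO replicate 2 (-0.25). Shares from counts in place of FPKM were 31.2% for HK2, 93.5% for ALDOA, 11.9% for ENO2 and 49.0% for LDHA in WT, since lengths differ. Adding pseudogene rows or leaving out a WT library moved no share by over 1 SD. Of the 10 enzymes, 9 rest on under 30 counts over the KO libraries, which limits their folds.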
